A study of Mus musculus with 8 samples.

Results

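The miRNAs mmu-miR-193a-3p, mmu-miR-193b-3p, mmu-miR-365-3p and mmu-miR-378a-3p, written below without the species prefix, which adipose research has tied to brown and beige fat cells, were followed in mouse skin. They were picked by name, with earlier results of these data known. All 4 were found among the 1881 mouse miRNAs of the array and among the 222 that were detected well enough to be tested. The NcstnΔKC group (4 samples) and the normal group (4 samples) were male mice of the genotype Ncstn flx/flx; Krt14 CreER+/-, with floxed Ncstn alleles and a Cre recombinase that needs tamoxifen and is driven by the promoter of keratin 14, made in basal keratinocytes. Nicastrin, the product of Ncstn, is part of γ-secretase, which cuts Notch receptors and other membrane proteins. From 8 weeks of age the NcstnΔKC mice were given tamoxifen by gavage, a daily 20 mg per kg over the first 5 days and then a dose every 10 days, whereas the normal mice, of the same genotype, were given corn oil. The groups therefore differ in tamoxifen and in loss of Ncstn at the same time, and the deletion itself was not checked, since the arrays hold no messenger RNA probes. Skin was taken at 16 weeks, as lesions according to the labels, and total RNA of each sample was labelled with Cy3 and read on a 1-colour array.

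A miRNA is a short RNA cut from a hairpin, and it pairs with messenger RNAs mostly through its seed, bases 2 to 8. The hairpins of miR-193b and miR-365-1 lie next to each other and are transcribed as a cluster that PPARα induces in mouse brown fat. miR-193b and miR-365 were described as promoting the brown adipocyte programme in cultured mouse precursors, although later work in mice found the cluster dispensable for brown fat. miR-378a lies within Ppargc1b, which encodes a coactivator of mitochondrial and oxidative genes, and acts on energy use in fat, liver and muscle. None of the 4 is confined to fat: miR-193a-3p restrains growth of several epithelial tumours, and miR-378a-3p is abundant in heart and skeletal muscle of mice. For lack of messenger RNA probes the fat content of the skin pieces was not checked either.

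The mature sequences are shown because they decide which members can share targets and which array signals can be assigned to a locus. They are from RefSeq (GRCm38.p6, plus strand for each), with the seed in capitals. The locus of miR-193a-3p is chr11:79712009-79712030, that of miR-193b-3p is chr16:13449570-13449591, and miR-365-3p is encoded at both chr16:13453895-13453916 and chr11:79726467-79726488. Sequences were matched for 3 of the 4 members, and miR-378a-3p is named only.
miR-193a-3p: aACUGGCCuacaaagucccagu
miR-193b-3p: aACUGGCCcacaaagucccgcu
miR-365-3p: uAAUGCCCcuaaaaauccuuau
miR-193a-3p and miR-193b-3p share the seed ACUGGCC, so they form 1 seed group, and miR-365-3p forms another. Counted from base 1 at the 5′ end, with the base of miR-193a-3p first, they differ at 3 of 22 positions (U9C, A20G and G21C).

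Both probes of miR-193a-3p and both of miR-193b-3p cover all 3 of these positions, since they pair with the 3′ part of the miRNA from base 6 or 7 to base 22. The longer probe of each is shown, 5′ to 3′, with the bases opposite the 3 differing positions in capitals. The array files (mm9) place the target of the first at chr11:79525516-79525532 and that of the second at chr16:13449669-13449684, a span of 16 bases for a probe of 17.
Probe of miR-193a-3p: aCTgggactttgtAggc
Probe of miR-193b-3p: aGCgggactttgtGggc
How much signal crosses between these 2 near-identical miRNAs was not tested. The same mature miR-365-3p stands in 2 hairpins, one beside miR-193b on chromosome 16 and one beside miR-193a on chromosome 11. Both hairpins are shown (RefSeq, GRCm38.p6, plus strand) with miR-365-3p in capitals, because the array cannot tell which of them made the signal.
Mir365-1 (chr16:13453840-13453926): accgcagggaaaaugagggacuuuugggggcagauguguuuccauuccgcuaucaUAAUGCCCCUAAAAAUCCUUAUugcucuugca
Mir365-2 (chr11:79726400-79726511): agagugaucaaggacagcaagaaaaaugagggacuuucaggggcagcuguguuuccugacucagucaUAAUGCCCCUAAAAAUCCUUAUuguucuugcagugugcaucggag
In the array's design (mm9) the probes of miR-365-3p lie 4.3 kb from those of miR-193b-3p on chromosome 16 and 14.4 kb from those of miR-193a-3p on chromosome 11. The 5p arms of the hairpins, miR-365-1-5p and miR-365-2-5p, differ at 3 of 23 positions and could tell the loci apart, but neither was detected on any array. The miR-365-3p signal therefore cannot be assigned to either locus or divided between them. In RefSeq's annotation Mir193b and Mir365-1 lie within the spans of the predicted genes Gm32817 and Gm53058, and Mir193a and Mir365-2 lie within no other gene.

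Which of these miRNAs differed in abundance was asked by setting NcstnΔKC skin against normal skin. miR-193a-3p, miR-365-3p and miR-193b-3p were lower in NcstnΔKC skin, by 2.24-fold, 2.05-fold and 1.73-fold. miR-378a-3p was 1.61 times lower in the mean but did not pass the test. Thus 3 of 4 members were called lower and 0 higher, where 27.9% of the 222 tested miRNAs were called lower, 14.9% higher and 42.8% in either direction (62 lower and 33 higher). Since the members were chosen with earlier results of these data known, that count is not a test of them against these shares. In 2 members the groups did not overlap, as was so for 36.9% of tested miRNAs, and for 23.4% with NcstnΔKC lower. Levels are log2 of the scanner's background-subtracted intensity, summed over a miRNA's probes after scaling each array to the 75th percentile of probes detected on all arrays. Levels of different miRNAs are not set against each other, since probes differ in brightness. Calls are from limma fitted to all tested miRNAs, with a Benjamini-Hochberg adjusted p of at most 0.05. Whether each sample was a mouse of its own is not said in the labels, so these p-values measure the spread between samples, which may be partly technical. In bulk skin RNA, fewer cells of a type and less RNA per cell cannot be told apart.

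miR-193a-3p, encoded on chromosome 11, had log2 levels of -3.003, -3.37, -3.20 and -3.06 in NcstnΔKC 1 to 4, against -2.19, -2.13, -1.76 and -1.91 in normal 1 to 4. The groups did not overlap, and the gap between them was wider than the range within either. The log2 difference was -1.16 ± 0.15 (SE, n = 4 each; limma adjusted p = 0.00166), the 26th lowest of 222 tested miRNAs. It was a dim miRNA: its summed intensity was 89.1 to 145 in NcstnΔKC and 278 to 362 in normal skin. Its shorter probe was detected on 0 NcstnΔKC and 2 normal arrays, so the level rests mainly on the longer one, which was 2.12-fold lower and was detected on all arrays. With the scanner software's own totals per miRNA the difference shrank to -0.50 (adjusted p = 0.0633), and it was -0.45 with normexp background correction (adjusted p = 0.00556).

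miR-365-3p had log2 levels of -1.56, -1.50, -1.87 and -1.97 in NcstnΔKC 1 to 4, against -0.78, -1.22, -0.44 and -0.34 in normal 1 to 4. Again the groups did not overlap, though normal 2 lay close to the highest NcstnΔKC arrays. The log2 difference was -1.03 ± 0.22 (limma adjusted p = 0.00766). Its 2 probes gave 2.06-fold and 2.03-fold lower levels, and both were detected on all 8 arrays. Leaving out any single array kept the call (adjusted p from 0.00299 to 0.03), but testing all 1881 miRNAs with no filter did not (adjusted p = 0.136).

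miR-193b-3p, the cluster partner of miR-365-1, had log2 levels of -0.65, 0.13, -0.54 and -0.56 in NcstnΔKC 1 to 4, against 0.39, -0.25, 0.67 and 0.72 in normal 1 to 4. Here the groups overlapped: NcstnΔKC 2 lay above normal 2, and each of these arrays stood apart from the rest of its group. The log2 difference was -0.79 ± 0.27 (limma adjusted p = 0.0421). This call was close to the threshold and was lost when normal 1, 3 or 4 or NcstnΔKC 1, 3 or 4 was left out (adjusted p up to 0.109). Without NcstnΔKC 2 the difference was -0.97 (adjusted p = 0.0253) and without normal 2 it was -0.9995 (adjusted p = 0.0111). The call was also lost with quantile normalization, cyclic loess, normexp or the series matrix values (differences from -0.77 to -0.65, adjusted p from 0.0566 to 0.109). Both probes were detected on all 8 arrays and were 1.64-fold and 1.78-fold lower.

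miR-378a-3p, the member within Ppargc1b, had log2 levels of -1.01, -1.21, -1.35 and -1.32 in NcstnΔKC 1 to 4, against -1.29, -0.64, -0.05 and -0.17 in normal 1 to 4. Normal 1 lay within the NcstnΔKC range, and the other 3 normal arrays lay above it. The spread was much wider in normal skin (SD 0.56) than in NcstnΔKC skin (SD 0.15, n = 4 each). The log2 difference was -0.69 ± 0.27 (limma unadjusted p = 0.0321, adjusted p = 0.0659). Without normal 1 it was -0.94 and passed (adjusted p = 0.0102), whereas without any other single array it did not pass (adjusted p from 0.0808 to 0.166).

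**Figure D1:**
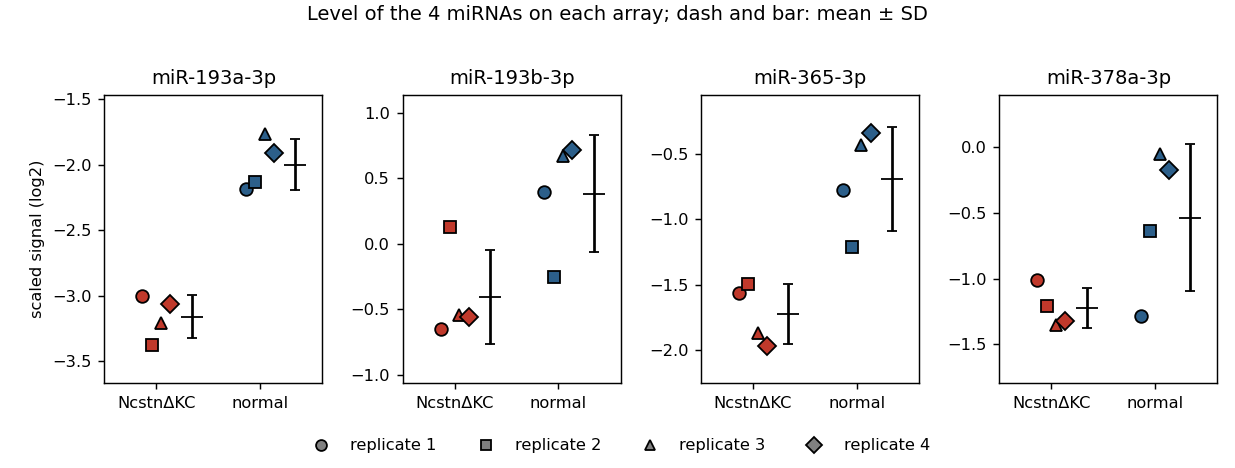
Scaled log2 level of each miRNA on the 4 NcstnΔKC arrays (red, left) and the 4 normal arrays (blue, right), each panel spanning 2.2 log2 units, with symbols for the replicate number and the group mean ± SD beside the points. The groups are apart for miR-193a-3p and miR-365-3p, while NcstnΔKC 2 overlaps normal 2 in miR-193b-3p and normal 1 lies among the NcstnΔKC arrays in miR-378a-3p.

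In the deposited series matrix, whose normalization no source used here gives, the same directions were found. miR-193a-3p averaged 5.02 ± 0.16 in NcstnΔKC and 6.06 ± 0.37 in normal skin, and miR-365-3p 7.14 ± 0.38 and 8.20 ± 0.55 (log2 values, SD, n = 4 each). Both passed limma in these values (adjusted p = 0.00698 and 0.0327). miR-193b-3p averaged 8.64 ± 0.37 in NcstnΔKC and 9.34 ± 0.56 in normal skin, and miR-378a-3p 7.79 ± 0.23 and 8.39 ± 0.66, and neither passed (adjusted p = 0.109 and 0.182). Thus 2 of 4 members were called lower there, where 16.2% of the 222 miRNAs were.

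Over all 222 tested miRNAs the median log2 difference was -0.23. Relative to that median the members lay at -0.93 (miR-193a-3p), -0.80 (miR-365-3p), -0.55 (miR-193b-3p) and -0.46 (miR-378a-3p). With no scaling or with scaling on 4 spiked-in control RNAs, all 4 members passed as lower, and 101 and 91 of the 222 miRNAs were called lower. With the 75th percentile over all probes the median of tested miRNAs moved to 0.64, no member passed, and miR-193b-3p and miR-378a-3p turned to 0.08 and 0.18. Quantile normalization called 32 lower and 36 higher, and the series matrix values 36 lower and 36 higher. That percentile over all probes lay between 0.826 and 6.54 intensity units in NcstnΔKC and between 4.23 and 6.30 in normal arrays, against 922 to 1160 and 1215 to 1314 for the percentile used here. A scaling by 1 factor per array moves all miRNAs alike, so with no scaling, spike-in scaling and the percentile over all probes the values relative to the median are the same by construction. Under the other 9 scalings, summaries and floors each member lay below the median, miR-193a-3p from -0.93 to -0.22 and miR-378a-3p from -0.54 to -0.42.

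**Figure D2:**
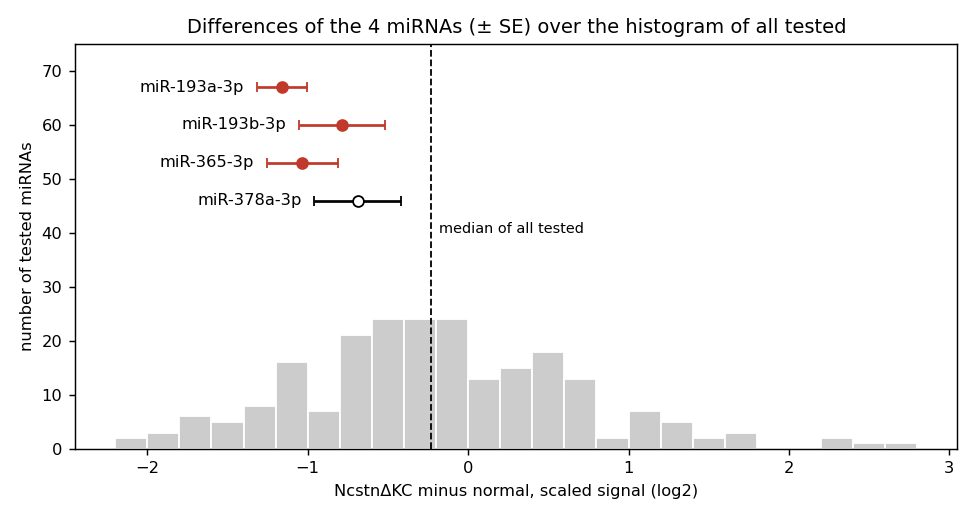
Log2 difference, NcstnΔKC minus normal, of the 4 miRNAs (points with SE; filled where called lower) above the histogram of the 222 tested miRNAs, whose median of -0.23 is the dashed line. All 4 points lie to the left of the median, and differences below that of miR-193a-3p (-1.16) were found for other miRNAs too.

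The partner arms of the hairpins showed no measurable signal or a weak one. miR-193a-5p, miR-193b-5p, miR-365-1-5p and miR-365-2-5p were well above background on 0 of 8 arrays. miR-378a-5p, the other arm of the miR-378a hairpin, was detected on 1 NcstnΔKC array and 3 normal arrays and was therefore not tested. Its summed intensity was 23.1 to 73.7 in NcstnΔKC and 52.6 to 203 in normal skin, so the ranges overlapped.

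miR-378b and miR-378d, relatives of miR-378a-3p from hairpins of their own that share most of its bases, were detected on all 8 arrays. miR-378b had a log2 difference of -0.72 ± 0.29 (limma adjusted p = 0.0751) and miR-378d of -0.76 ± 0.32 (adjusted p = 0.0815). miR-378c was detected on 1 NcstnΔKC and 3 normal arrays and was not tested. Over the 8 arrays the profiles of miR-378b and miR-378d were the 2 nearest to that of miR-378a-3p among 218 other tested miRNAs, with root mean square distances of 0.07 and 0.12 log2 units after each profile was centred on its own mean. The median distance was 0.58. How much of the signal each relative holds cannot be told apart here.

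The members were next compared with each other, to see whether miR-193b-3p changed like its cluster partner and like miR-193a-3p. The log2 difference between 2 members was taken within each array. miR-193b-3p minus miR-365-3p was 0.92, 1.63, 1.33 and 1.41 in NcstnΔKC 1 to 4, against 1.17, 0.96, 1.11 and 1.06 in normal 1 to 4. It was nearly constant in normal skin (SD 0.09) and varied more in NcstnΔKC skin (SD 0.30, n = 4 each), with NcstnΔKC 2 highest and NcstnΔKC 1 lowest. The mean moved by 0.25 between groups (exact two-sided permutation p = 0.171, adjusted p = 0.457 over 6 pairs). The change of miR-193b-3p minus that of miR-193a-3p was 0.37 (exact permutation p = 0.4, adjusted p = 0.6), and that of miR-365-3p minus miR-193a-3p was 0.13 (p = 0.571, adjusted p = 0.686). The largest was that of miR-378a-3p minus miR-193a-3p, at 0.47 (exact permutation p = 0.0571, adjusted p = 0.343). The 3 pairs with miR-193a-3p turned negative with normexp, with the software's totals and with the mean over probes (-0.66 to -0.04). No pair passed. With 8 arrays the smallest unadjusted p is 0.0286, so at least 4 of the 6 pairs would have had to reach it for any to pass after adjustment, and this does not show that the members changed by the same amount.

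Agreement from array to array was measured on deviations from each group's mean, so that the group difference itself could not create it. Across the 8 arrays miR-193b-3p and miR-365-3p gave r = 0.84 (exact permutation within groups, p = 0.0156) and rho = 0.79 (p = 0.0295). Adjusted over the 10 relations computed, these exact permutation values were p = 0.0521 and p = 0.127, so the relation did not pass, and neither did any of the other 9 (3 of the 10 had an unadjusted p under 0.05 for r). In the series matrix values it did, with r = 0.89 (exact permutation adjusted p = 0.0174), and with quantile normalization r was 0.94 (adjusted p = 0.0347). Without normal 3 and normal 4, the arrays farthest from the median level of miR-193b-3p, r was 0.72. That choice used levels, so normal 2 and NcstnΔKC 2, which deviated most from their group means, stayed in, and r without them was not computed. Of the normal group only normal 1 and normal 2 then remain, with equal and opposite deviations, so such an r rests in part on their contrast. miR-193b-3p and miR-193a-3p, which share a seed but lie on different chromosomes, gave r = 0.04 (exact permutation p = 0.965) and rho = -0.24 (p = 0.62). Without normal 3 and normal 4 that r was -0.81, and over all 8 arrays it was 0.52 in the series matrix values, 0.56 with quantile normalization and 0.92 with the percentile over all probes. miR-365-3p and miR-193a-3p gave r = 0.38 (exact permutation p = 0.418, rho = 0.24, p = 0.627), and r = -0.37 without the same 2 arrays. For this pair r was 0.52 with no scaling, 0.70 in the series matrix values and 0.79 with quantile normalization. It was 0.96 with the percentile over all probes, where it passed (exact permutation adjusted p = 0.0174). The percentile over all probes, however, ranged from 0.826 to 6.54 intensity units in NcstnΔKC arrays and divides all miRNAs of an array alike. Such a shared factor moves both members together, also on deviations from group means. An r near 1 under that scaling therefore does not measure their agreement. Whether r differed between these pairs was not tested. NcstnΔKC 2 held the highest NcstnΔKC level of miR-193b-3p and of miR-365-3p and the lowest of miR-193a-3p.

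Striated muscle miRNAs varied widely between arrays and were set beside the members. The mean log2 level of the 5 tested ones was 1.86, -0.67, 0.39 and 0.42 in NcstnΔKC 1 to 4, against 0.61, 2.13, 3.09 and 2.66 in normal 1 to 4. Their summed log2 level ranged from 2.69 to 5.27 in NcstnΔKC and from 4.14 to 6.40 in normal skin. Of all tested miRNAs 27.9% were called lower, and of these 5 miR-1a-3p was (-1.83 ± 0.63, limma adjusted p = 0.0451), while the other 4 were not called. Their differences were negative too. They were -1.73 for miR-133a-3p, -1.69 for miR-133b-3p, -1.84 for miR-133a-5p and -1.03 for miR-206-3p (limma adjusted p = 0.0518, 0.0557, 0.0575 and 0.283). The median of the 5 was -1.73, against -0.23 over all tested miRNAs. The markers of heart and slow muscle fibres miR-499-5p, miR-208a-3p and miR-208b-3p were detected on no array. On deviations from group means miR-378a-3p and the muscle mean gave r = 0.80 (exact permutation p = 0.0156; rho = 0.76, p = 0.0295), and r = 0.71 without normal 3 and normal 4. miR-193a-3p and the muscle mean gave r = 0.88 (exact permutation p = 0.0122; rho = 0.83, p = 0.0382), and r = 0.79 without NcstnΔKC 2 and normal 3. Neither passed over the 10 relations (adjusted p = 0.0521 for both r). For miR-378a-3p and muscle r was 0.75 with quantile normalization, 0.77 with the percentile over all probes, 0.83 in the series matrix values and 0.89 with no scaling, where it passed (exact permutation adjusted p = 0.0174). For miR-193a-3p and muscle r was 0.66, 0.67, 0.76 and 0.88 in the same order and passed in none of them. With the percentile over all probes and without NcstnΔKC 3 and NcstnΔKC 4, r was 0.07 for miR-193a-3p and 0.49 for miR-378a-3p. That percentile divides the muscle miRNAs by the same factor as the members, and no scaling leaves each array's brightness in both. The r values under these settings therefore do not measure agreement alone. miR-193b-3p gave r = -0.19 (exact permutation p = 0.688; rho = -0.29, p = 0.582) and miR-365-3p r = 0.27 (p = 0.573; rho = 0.31, p = 0.505). Without normal 3 and normal 4, r was -0.88 for miR-193b-3p and -0.33 for miR-365-3p. The arrays left out were again chosen by levels and not by deviations. Each r without normal 3 and normal 4 rests in part on the contrast of normal 1 with normal 2. The part of muscle content in the differences between groups was not tested.

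**Figure D3:**
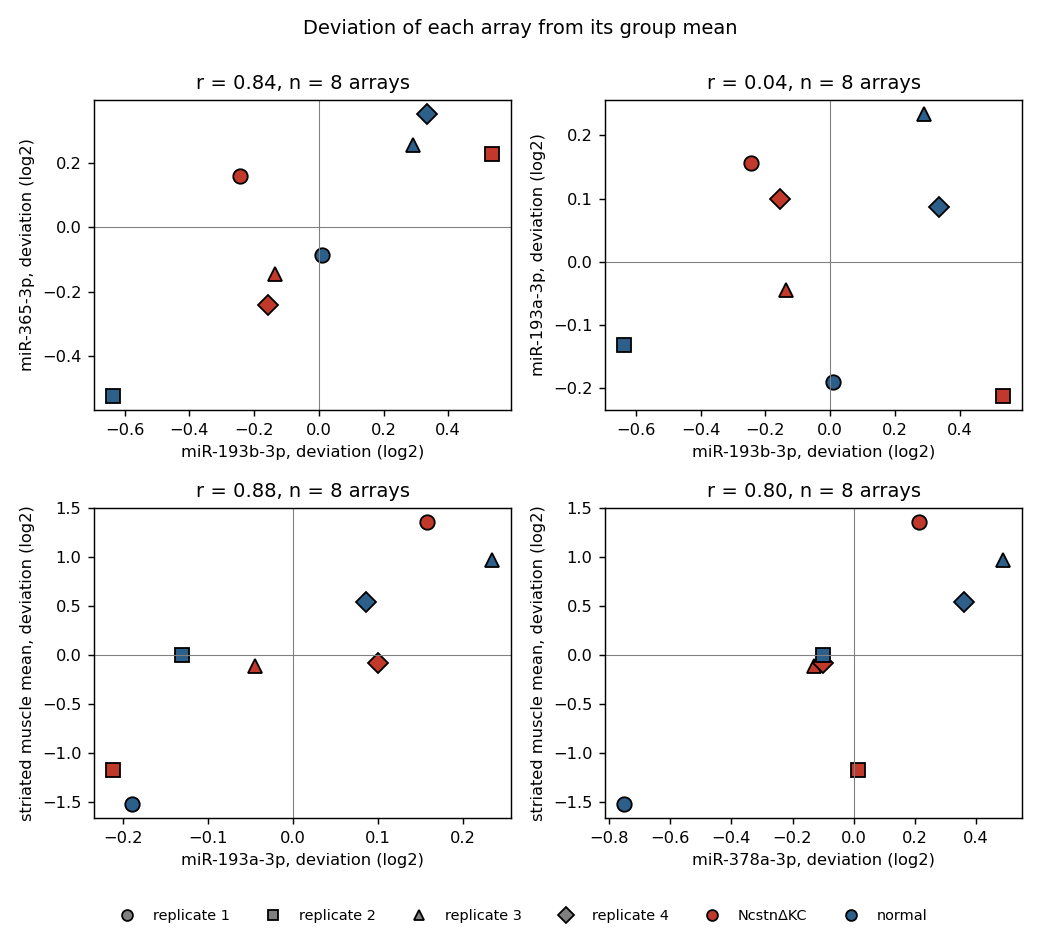
Deviation of each array from its group mean (log2), for miR-193b-3p against miR-365-3p and miR-193a-3p in the upper row and for miR-193a-3p and miR-378a-3p against the mean of 5 striated muscle miRNAs in the lower row, with red for NcstnΔKC, blue for normal and symbols for the replicate number. r was 0.84 for miR-193b-3p with miR-365-3p and 0.04 for miR-193b-3p with miR-193a-3p, and normal 1 lies lowest in the muscle mean and in miR-378a-3p.

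The miRNAs whose profiles lay nearest to each member, by the same root mean square distance over 8 arrays, are given as a description, since this distance includes the difference between groups. For miR-193b-3p they were miR-429-3p, miR-183-5p and miR-200a-3p (0.21 to 0.22 log2 units, where the median over 218 miRNAs was 0.64). miR-365-3p itself lay 0.23 from miR-193b-3p, and 3 non-members were closer. For miR-193a-3p the nearest were miR-466f-3p, miR-6360 and miR-7042-5p (0.19 to 0.23). miR-466f-3p was detected on 0 NcstnΔKC and 4 normal arrays, with 3 of its NcstnΔKC values at the floor, so its profile is flat there. For miR-365-3p they were miR-466f-3p, miR-429-3p and miR-7042-5p (0.20 to 0.22), and for miR-378a-3p miR-378b, miR-378d and then miR-128-3p at 0.19, detected on 1 NcstnΔKC and 4 normal arrays.

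Other miRNAs that act on fat cells were counted by role, in lists drawn up from general knowledge of mouse and human adipocytes. The lists were chosen with earlier results of these data known, and some share miRNAs with each other or with the markers of other cells. Of 13 further miRNAs described as promoting brown or beige adipocytes, 6 were tested, of which 2 were lower and 0 higher (27.9% and 14.9% of all tested miRNAs), with a median log2 difference of -0.30 against -0.23 over all tested miRNAs. The 2 were miR-203-3p, better known for driving differentiation of the epidermis (-0.68 ± 0.17, limma adjusted p = 0.0139), and miR-30c-5p (-0.57 ± 0.18, adjusted p = 0.0361). miR-26a-5p differed by -0.45 ± 0.19 (adjusted p = 0.0845) and miR-182-5p by 0.17 ± 0.14 (adjusted p = 0.338).

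Of 10 miRNAs described as restraining brown or beige adipocytes, all 10 were tested, and 3 were higher, 2 lower and 5 not called (median -0.11), where 14.9% of all tested miRNAs were higher and 27.9% lower. miR-155-5p, which is also induced in activated macrophages, was 2.39-fold higher (limma adjusted p = 0.00402), and miR-106b-5p and miR-93-5p, from a cluster within Mcm7, were 1.63-fold and 1.54-fold higher (adjusted p = 0.00573 and 0.012). Lower were miR-494-3p, by 4.11-fold (adjusted p = 0.00173), and miR-125b-5p, by 1.44-fold (adjusted p = 0.0203). miR-133a-3p, a repressor of Prdm16 that is abundant in muscle, differed by -1.73 ± 0.62 (adjusted p = 0.0518).

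Among 12 miRNAs that promote fat cell formation more generally, 9 were tested, and 4 were higher, 1 lower and 4 not called (median -0.24), beside 14.9% higher and 27.9% lower over all tested miRNAs. The 4 were miR-21a-5p, miR-146b-5p, miR-20a-5p and miR-92a-3p (1.72-fold to 5.70-fold), each also known from inflamed or proliferating tissue, and the lower one was miR-204-5p, which was detected on 1 NcstnΔKC array and 4 normal arrays, with the other 3 NcstnΔKC values at the floor, so no fold is given. Of 9 miRNAs on the array that restrain fat cell formation, 4 were tested, and 2 were lower and 0 higher (median -0.17), against the same 27.9% and 14.9%. miR-130a-3p, which targets Pparg, was 1.29-fold lower (limma adjusted p = 0.0411). miR-145a-5p, a smooth muscle miRNA, was called lower too (adjusted p = 0.045), but it was detected on 1 NcstnΔKC array and 4 normal arrays, with 2 values at the floor. miR-27a-3p and miR-27b-3p differed by 0.03 and 0.42 and did not pass (adjusted p = 0.858 and 0.0806).

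Marker miRNAs of the cells in skin were read on the same scale. All 8 epithelial markers were detected on all 8 arrays, and their summed log2 level was 4.52 to 4.93 in NcstnΔKC and 4.51 to 4.79 in normal skin. Their mean log2 level, in which bright miRNAs weigh no more than dim ones, was 0.19 to 0.56 in NcstnΔKC and 0.50 to 0.78 in normal skin. Of the 8, miR-429-3p, miR-200a-3p, miR-200b-3p and both arms of miR-203 were called lower (5 of 8, where 27.9% of all tested were). None was called higher, and miR-205-5p, miR-141-3p and miR-200c-3p differed by 0.47, 0.30 and 0.12 (limma adjusted p = 0.0518, 0.138 and 0.618). The summed level of 8 tested white blood cell miRNAs was 1.68 to 3.24 in NcstnΔKC and 1.16 to 1.61 in normal skin, and their mean log2 level was -2.13 to -1.38 in NcstnΔKC and -2.69 to -2.31 in normal skin. Of the 8, miR-511-3p, miR-155-5p and miR-142a-3p were called higher (3 of 8, where 14.9% of all tested were). miR-181b-5p, detected on 0 NcstnΔKC and 4 normal arrays, was called lower (1 of 8, where 27.9% of all tested were). The other 4 were not called. Of these, miR-223-3p and miR-150-5p differed by 1.15 and 0.89 (limma adjusted p = 0.0644 and 0.0653), and miR-181a-5p and miR-342-3p by -0.30 and -0.00016. The summed level of 6 fibroblast and smooth muscle miRNAs was 3.38 to 4.02 in NcstnΔKC and 2.84 to 3.29 in normal skin. Their mean log2 level overlapped, at -0.67 to 0.03 in NcstnΔKC and -0.64 to -0.44 in normal skin. Of the 6, miR-214-3p and both arms of miR-199a were called higher (3 of 6, where 14.9% of all tested were). miR-145a-5p, detected on 1 NcstnΔKC and 4 normal arrays with 2 values at the floor, was called lower (1 of 6, where 27.9% of all tested were). miR-143-3p and miR-199b-5p differed by -0.52 and -0.09 and were not called (limma adjusted p = 0.197 and 0.715). The endothelial miR-126a-3p differed by 0.15 ± 0.14 (limma adjusted p = 0.392). The part of these shifts in the lower levels of the members was not tested. Arrays detected 198 to 238 miRNAs in NcstnΔKC and 235 to 273 in normal skin, and their number limits the precision. All lie on 1 slide, with the NcstnΔKC arrays in slide row 1 and the normal arrays in slide row 2, so row and group cannot be told apart.

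**Figure D4:**
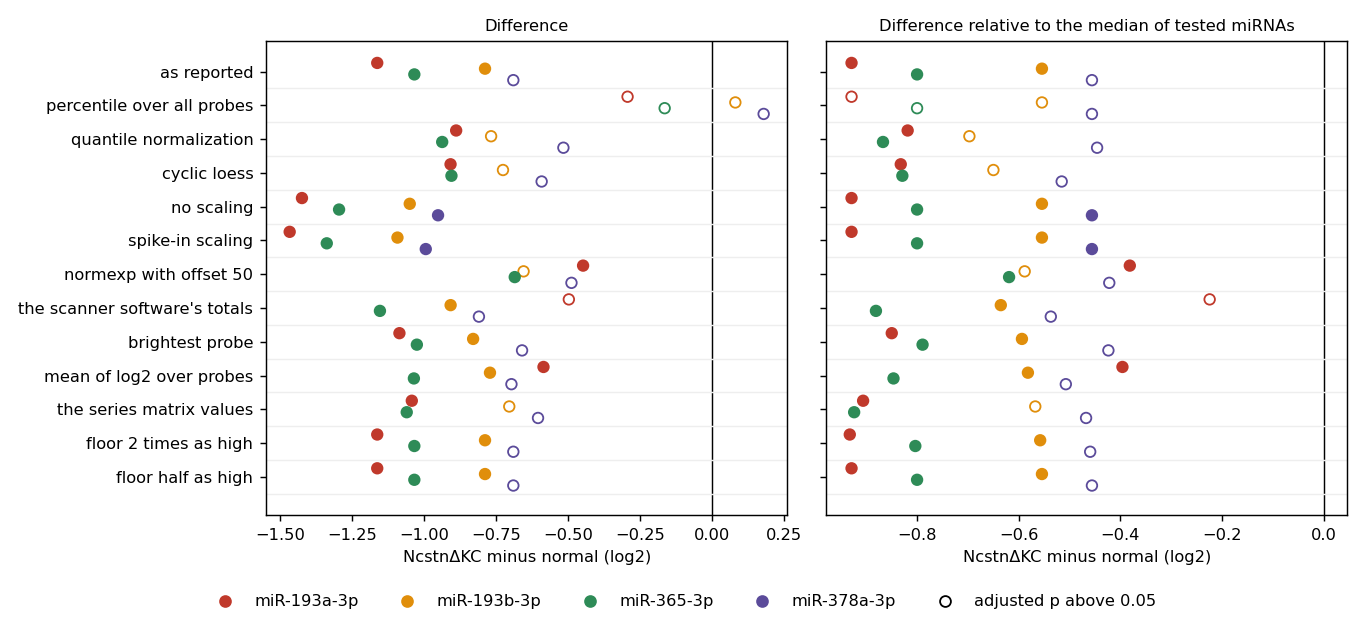
Log2 difference, NcstnΔKC minus normal, of the 4 miRNAs as reported and under 12 alternative scalings and summaries (rows), as it stands on the left and relative to the median of tested miRNAs on the right, with open points where the adjusted p was above 0.05. On the left 2 points lie above 0, both with the percentile over all probes, and on the right every point lies below 0, where the rows for 1 factor per array repeat the reported one by construction.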

How the data were processed

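Per the file headers, the authors used Agilent Feature Extraction 10.7.1.1, and the deposited files give each spot's mean, background and processed (background-subtracted) intensity, with positions on mm9 and no normalization between arrays. The deposited series matrix holds log2 values whose normalization no source used here gives; over tested miRNAs they correlated with log2 of the summed processed intensity at r from 0.977 to 0.988, and their medians were 3.24 to 3.25. Control spots and outlier spots were left out, and 0 spots were saturated. Detection required that 50% or more of a probe's spots stood well above background. Processed intensities were averaged per probe, scaled to each array's 75th percentile of the 301 probes detected on all arrays, summed per miRNA, raised to a floor of 0.0318 (log2 -4.97) where lower, and logged; no member reached the floor. The 222 miRNAs detected on all 4 arrays of a group were tested with limma 3.58.1 in R 4.3.3 (group alone, Benjamini-Hochberg over 222). The fit was also run on simulated data with independent noise per probe and planted changes. These held no slide row or scaling effect, so that run does not bear on those limits. Pairs of members were compared by exact permutation over 70 labelings, and agreement over 576 pairings within groups. The members and lists were chosen with earlier results of these data known. Named were the members, their relatives, the tested cell markers and the 3 nearest profiles per member. From each other list up to 4 miRNAs with the smallest p or a call were named. Alternatives covered scaling, background, summary, floor, filter, model and leaving out each array.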

Additional observations from a re-analysis of the deposited data

Results flagged for a closer look

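In 3 of 24 groups of 4 arrays examined, the values of a member or relative or of the difference between 2 members, 1 array stood farther from its nearest neighbour than Dixon's 95% limit allows. Chance alone gives about 1 in 20 for independent groups. The 24 are not independent, since the differences are built from the members' own values and the profiles of miR-378b and miR-378d are closely alike. The 2 rates therefore cannot be set against each other. miR-193b-3p in NcstnΔKC 2 was at 0.13, against -0.54 for the next array of its group. miR-378b in NcstnΔKC 1 was at -1.10, against -1.54, and miR-378d in NcstnΔKC 1 at -0.69, against -1.28. NcstnΔKC 1 was also the array of its group with the highest striated muscle level (mean log2 1.86).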

How the results depend on the processing

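Of the 4 members, miR-193a-3p and miR-365-3p were lower in NcstnΔKC skin under all alternatives run, and miR-193b-3p and miR-378a-3p under all but the 75th percentile over all probes. There the differences were -0.29 for miR-193a-3p, -0.16 for miR-365-3p, 0.082 for miR-193b-3p and 0.18 for miR-378a-3p, with 0 members and 12 tested miRNAs called (limma; 3 and 95 as reported). The call of miR-193b-3p was lost with normexp (-0.65), cyclic loess (-0.73), the series matrix values (-0.70) and quantile normalization (-0.77), and, at the unmoved difference of -0.79, with miRNAs detected on at least 1 array, with no filter and with the replicate number as a block. That of miR-193a-3p was lost with the software's totals (-0.50) and that of miR-365-3p with no filter (-1.03), which left 1 member and 19 miRNAs called. miR-378a-3p passed with no scaling (-0.95), spike-in scaling (-0.99) and array weights (-1.06). Tested miRNAs called were 61 with miRNAs detected on all 8 arrays and 149 with array weights. The cause of these shifts was not tested.

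The change of miR-193b-3p minus that of miR-193a-3p was -0.21 with normexp, -0.41 with the software's totals and -0.19 with the mean of log2 over probes. For miR-365-3p minus miR-193a-3p these were -0.24, -0.66 and -0.45, with -0.048 under quantile normalization and -0.018 in the series matrix, and for miR-378a-3p minus miR-193a-3p they were -0.040, -0.31 and -0.11. Relations within groups that passed numbered 0 as reported and 6 with the percentile over all probes. Those 6 were the pairs of members, which that percentile moves together by construction. Quantile normalization and the series matrix gave 1 each (miR-193b-3p with miR-365-3p). No scaling, which leaves each array's brightness in both measures, also gave 1 (miR-378a-3p with the muscle mean).

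Leaving out 1 array at a time gave -1.22 to -1.08 for miR-193a-3p, -0.9995 to -0.68 for miR-193b-3p, -1.21 to -0.92 for miR-365-3p and -0.94 to -0.53 for miR-378a-3p. It left 2 to 3 members and 58 to 96 tested miRNAs called, the fewest without NcstnΔKC 3. The change of miR-365-3p minus miR-193a-3p ran from -0.017 (without NcstnΔKC 2) to 0.24, and that of miR-378a-3p minus miR-193b-3p from -0.16 (without normal 1) to 0.28. With the replicate block 71 miRNAs were called, and miR-193a-3p and miR-365-3p kept their calls (adjusted p = 0.0105 and 0.0431). Same-numbered arrays did not deviate together (r from -0.44 to 0.20), and the labels do not say that numbers pair mice. The 4 arrays per group, the overlap of row with group and dim probes of miR-193a-3p limit these results.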
